A study of Mus musculus with 8 samples.

Results

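The collagen genes are the rows of the deposited count table whose symbol is Col, a type number, the letter a and a chain number. By that rule 44 of 25078 genes were members. They were sorted by textbook class into 11 fibrillar, 6 basement membrane and 6 beaded filament genes, with 21 others. The RNA came from the livers of male C57/BL6 mice, counted here as 8 animals because each sample title has its own number. All had eaten a diet rich in fat, fructose and cholesterol for 25 weeks. The genotype label is wild type for 5 of them and Midn hemizygotes for 3, which the titles call Het. The design text describes a global knockout of Midn, the gene of midnolin, and says that homozygous embryos mostly died, so that animals with 1 intact copy were studied. No age, batch or deleted part of the gene is given in the sources used here. The question the labels and the series title pose is how losing 1 copy of Midn bears on diet-induced fatty liver disease. Collagen transcripts are read here as part of that question, since the diet is a model in which liver scarring can develop.

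Collagens are secreted proteins wound from 3 chains into a triple helix, and a collagen type is named by a number and its chains by a second number. Fibrillar collagens build the cables of scar tissue, basement membrane collagens form sheets under epithelium and around vessels, and beaded filament collagens link cells to the fibrils between them. In liver, activated stellate cells and portal fibroblasts are the main known sources of fibrillar collagen, while hepatocytes are a known source of type XVIII collagen. In whole liver RNA, fewer cells of a type and less transcript per cell cannot be told apart.

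Library totals ran from 17508221 to 24916239 counts, of which collagens made up 0.133 to 0.487%. Midn checks the labels. Its level was 68.7, 39.8, 71.4, 41.7 and 29.2 CPM in wild-type livers 1 to 5 and 60.4, 39.0 and 51.6 CPM in the others. CPM is the count over the library total scaled by TMM, an edgeR normalization, expressed per 1e6. The groups overlapped in Midn (log2 fold change 0.00, SE 0.30, edgeR adjusted p = 0.994), and reads from outside the unknown deletion cannot serve as a check. The 3 livers are therefore called het-labelled, and fold changes give het-labelled minus wild type. Rpph1, a nuclear RNA without a poly(A) tail, took 0.673 to 1.06% of counts in wild-type livers 2, 4 and 5, and 0.304 and 0.331% in wild-type livers 3 and 1. Its share was 0.229 to 0.399% in the het-labelled livers. The main collagen results that differ between these 2 sets of wild-type livers are given for each. Pathway and marker lists were compared only in the fit with all wild-type livers.

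Most collagen transcripts were measured in every liver, and some were near 0. A summed count below 10 over the 8 libraries was found for 9 members. These were the cartilage chains Col2a1 (1 count), Col11a1 (2 counts), Col9a1 (2 counts) and Col9a2 (9 counts), and Col10a1 (0 counts), the network collagen of growth plate cartilage. The others were Col26a1 (0 counts), Col19a1 (3 counts), the beaded filament chain Col6a4 (4 counts) and Col17a1 (7 counts), a transmembrane collagen of skin. A count of 0 allows up to 3 counts, or 0.112 to 0.181 CPM depending on the library. On the edge of that limit, Col9a2 had 9 counts and Col22a1 11. Neither Col22a1 nor Col28a1 passed the filter on low counts, so 33 of the 44 members were tested and 11 were not. Col28a1, which carries von Willebrand domains, had 12, 11, 7, 3 and 2 counts in wild-type livers 1 to 5 and 0, 1 and 1 in the het-labelled livers. These few counts were below the filter and no fold change is given for them.

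Compared per length of exon, the level of Col18a1, which yields the angiogenesis inhibitor endostatin, was the highest of the 44 in the mean over the 8 livers, at 114 CPM per kb. Col3a1, the chain of type III collagen, had 72.6 CPM per kb, and Col14a1, which coats fibrils, had 33.3 CPM per kb. The next levels were close together, with 27.2 CPM per kb for Col4a1 of the basement membrane and 27.1 and 26.1 CPM per kb for Col1a2 and Col1a1, the chains of type I collagen. The order changed from liver to liver. Col3a1 was above Col18a1 as a share of summed collagen CPM per kb in wild-type liver 2 (25.0 and 19.3%) and wild-type liver 3 (20.6 and 17.3%). In het-labelled livers 1 and 3 Col18a1 made up 45.8 and 51.0% and Col3a1 10.4 and 8.27%. In het-labelled liver 2 the shares were 24.8 and 20.4%, inside the wild-type ranges of 17.3 to 30.0% for Col18a1 and 19.9 to 25.0% for Col3a1.

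The summed level of all collagens was 3257, 2081, 3831, 1878 and 1498 CPM in wild-type livers 1 to 5 and 2455, 2490 and 1951 CPM in het-labelled livers 1 to 3. The het-labelled livers all lay inside the wild-type range. By class, as means ± SD of the 5 wild-type and then the 3 het-labelled livers, fibrillar genes summed to 989 ± 435 and 755 ± 274 CPM. Basement membrane genes summed to 367 ± 194 and 237 ± 46.8 CPM, and beaded filament genes to 309 ± 212 and 153 ± 95.1 CPM. The remaining class, led by Col18a1, was the 1 with a higher mean in het-labelled livers, at 844 ± 190 and 1154 ± 241 CPM. In that class Col18a1 alone had means of 533 and 872 CPM. Of its 13 tested genes, 7 had a log2 fold change below 0. These sums were not tested.

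**Figure D1:**
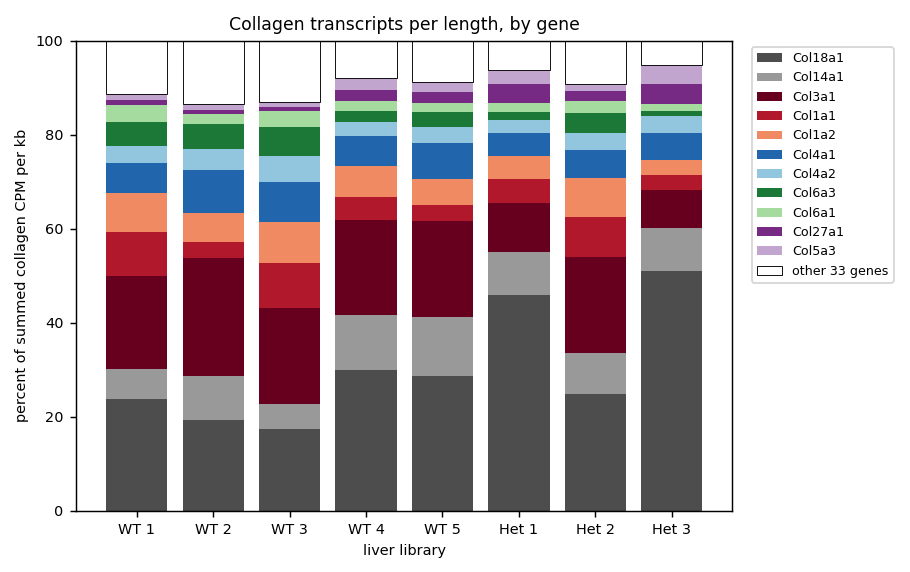
Share of each collagen gene in the summed collagen CPM per kb of exon, in percent, for each of the 8 livers (WT, wild type; Het, het-labelled). Col18a1 takes 45.8 and 51.0% in het-labelled livers 1 and 3 and at most 30.0% in the other 6.

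No collagen passed edgeR's quasi-likelihood test with Benjamini-Hochberg adjustment, and neither did any other gene (0 of 14438, 0%). At an unadjusted p under 0.05, 2 of the 33 tested collagens were lower in the het-labelled livers (6.06%, against 5.43% of all genes) and 5 were higher (15.2%, against 10.3%). The lower ones were Col5a2 and Col6a5, and the higher ones Col27a1, Col5a3, Col24a1, Col18a1 and Col20a1. These shares lie close to the background. The median log2 fold change over the 33 was −0.57, against 0.00 over all genes, and 23 of the 33 were below 0, against 49.6% of all genes. That median was −1.25 against wild-type livers 1 and 3 alone, with 25 of 33 below 0, and 0.0044 against wild-type livers 2, 4 and 5 alone, with 16 of 33 below 0. It was −0.92 without het-labelled liver 2, −0.34 without wild-type liver 3 and −0.38 without het-labelled liver 3. DESeq2 called 1 collagen, Col27a1, among the 0.63% of genes it called higher, and 0 collagens among the 0.471% it called lower. Without the filter on low counts DESeq2 placed 9 of 42 collagens lower (21.4%, against 7.16% of all genes) and 5 higher (11.9%, against 6.96%) at its own unadjusted p under 0.05. The number lower in edgeR turned on single livers. Of the 33 it was 8 without wild-type liver 4 (24.2%, against 6.05% of all genes), 7 without wild-type liver 5 (21.2%, against 5.49%) and 11 without het-labelled liver 2 (33.3%, against 11.2%). It was 1 without wild-type liver 3 (7.42% of all genes) and 0 without het-labelled liver 1 (1.5%) or het-labelled liver 3 (1.7%). The number higher was 3 (9.09%) without wild-type liver 2, 4 or 5 or het-labelled liver 1, against 5.73, 9.57, 8.4 and 3.86% of all genes. It was 2 without het-labelled liver 3 (6.06%, against 4.19%).

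**Figure D2:**
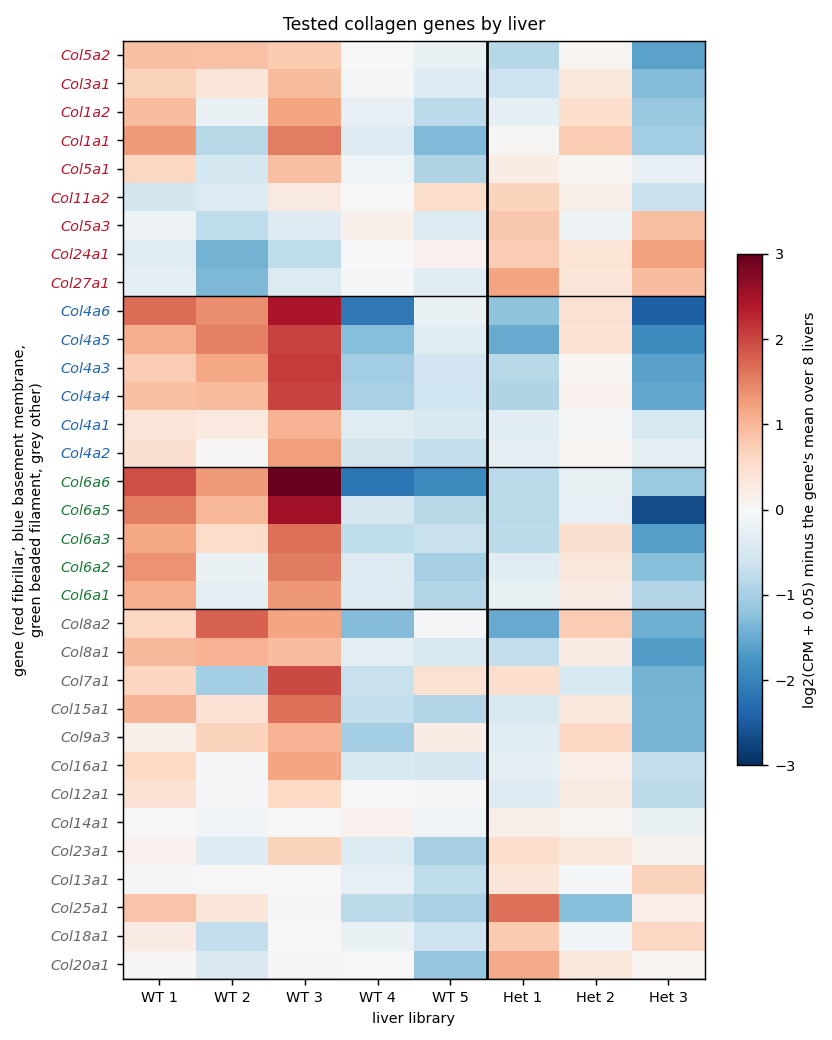
Level of the 33 tested collagen genes in each liver as log2(CPM + 0.05) minus the gene's mean over the 8 livers, grouped by class and ordered by fold change. Wild-type liver 3 is the highest liver for 21 genes and het-labelled liver 3 the lowest for 20. Wild-type livers 4 and 5 and het-labelled livers 1 and 3 are the 4 lowest for genes of every class. Col1a2, Col3a1, Col4a1 to Col4a6, Col6a3 and Col15a1 are among them.

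Livers of the same genotype differed from each other in most members. Wild-type liver 3 was the highest of all 8 livers for 21 of the 33 tested collagens and the lowest for 0. Het-labelled liver 3 was the lowest for 20 and the highest for 3. Het-labelled liver 2 was the highest of the 3 het-labelled livers for 21 members. The highest wild-type liver stood above the lowest by more than 2-fold for 28 members, with a median of 3.78-fold and a range of 1.18-fold (Col14a1) to 39.8-fold (Col6a6). For 31 of 33 members the range of the wild-type livers on the log2 scale was wider than the difference between the genotypes, as it was for 91.6% of the 14400 genes with a count in every wild-type liver. The 2 exceptions were Col27a1 and Col5a2.

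Type I and type III collagen, the bulk of scar tissue, overlapped between the genotypes. Col1a1 (chromosome 11, 94936224 to 94953042, plus strand, mm10) had 291, 68.5, 348, 93.2 and 48.2 CPM in wild-type livers 1 to 5 and 124, 205 and 58.3 CPM in het-labelled livers 1 to 3. Wild-type livers 1 and 3 were above every het-labelled liver, and wild-type livers 2, 4 and 5 were among or below them. The means were 170 ± 139 CPM (SD, n = 5) and 129 ± 73.6 CPM (SD, n = 3). On the log2 scale the difference was −0.40 (SE 0.70, edgeR adjusted p = 0.765). Its partner chain Col1a2 had 159 ± 91.3 and 111 ± 61.2 CPM in wild-type and het-labelled livers (−0.52, SE 0.51). Col3a1 (chromosome 1, 45311538 to 45349706, plus strand) had 588, 466, 707, 347 and 279 CPM in the wild-type livers and 236, 463 and 148 CPM in the het-labelled ones. Het-labelled livers 1 and 3 were below every wild-type liver, and het-labelled liver 2 was level with wild-type liver 2. The log2 fold change of Col3a1 was −0.76 (SE 0.42, edgeR adjusted p = 0.387). Without wild-type liver 3 that of Col1a1 was 0.013, so its sign rested on that liver.

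The stretches before the transcription start of these genes are shown because Col1a2 and Col3a1 stood high in the same livers while Col5a3 and Col27a1, described next, did not. They come from RefSeq's table for GRCm38.p6, whose windows run from 250 bases before to 50 bases after a start and matched 35 of the 44 members at 38 starts. Col1a1, Col2a1, Col4a3, Col5a2, Col9a3, Col12a1, Col14a1, Col22a1 and Col26a1 were not matched. Only bases outside annotated GENCODE M21 exons are printed, 5′ to 3′ on the gene's strand. Capitals mark matches to any of 4 motifs, each searched on both strands. The first is the CCAAT box, searched by those letters. The second is the GC box, known for binding SP factors and searched as GGGCGG. The third is the TATA box, which places the transcription start and was searched as TATAAA. The fourth is the core bound by FOXA factors of hepatocytes, searched as TGTTTAC. No match overlapped another.
Col1a2, chr6:4505370-4505492, plus strand: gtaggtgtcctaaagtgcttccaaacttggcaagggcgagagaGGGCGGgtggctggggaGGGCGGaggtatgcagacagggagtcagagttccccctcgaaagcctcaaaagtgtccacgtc
Col3a1, chr1:45311288-45311537, plus strand: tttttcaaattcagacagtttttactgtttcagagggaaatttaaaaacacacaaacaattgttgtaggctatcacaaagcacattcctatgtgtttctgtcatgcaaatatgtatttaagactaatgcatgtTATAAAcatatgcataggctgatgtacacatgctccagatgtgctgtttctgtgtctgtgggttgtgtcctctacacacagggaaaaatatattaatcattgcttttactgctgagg
Col5a3, chr9:20815068-20815317, minus strand: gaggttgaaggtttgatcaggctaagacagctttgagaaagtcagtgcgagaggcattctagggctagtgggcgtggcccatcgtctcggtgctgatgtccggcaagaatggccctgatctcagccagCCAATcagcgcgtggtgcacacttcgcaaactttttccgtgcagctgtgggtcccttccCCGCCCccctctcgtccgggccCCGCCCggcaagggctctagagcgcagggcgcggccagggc
Col27a1, chr4:63215162-63215411, plus strand: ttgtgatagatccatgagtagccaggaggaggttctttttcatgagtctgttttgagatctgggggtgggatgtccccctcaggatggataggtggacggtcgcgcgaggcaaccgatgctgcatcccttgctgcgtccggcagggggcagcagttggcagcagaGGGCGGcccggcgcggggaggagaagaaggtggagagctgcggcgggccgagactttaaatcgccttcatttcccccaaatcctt
The Col1a2 stretch held 2 GC boxes, the Col3a1 stretch 1 TATA box, the Col5a3 stretch 1 CCAAT box and 2 GC boxes, and the Col27a1 stretch 1 GC box. The stretches are not alike in extent. That of Col1a2 has 123 bases and ends 125 bases before the start, so matches nearer the start are not shown. The other stretches have 250 bases and reach the start. Over whole windows of 300 bases, the GC box was found in 60.5% of the 38 collagen windows and in 35.7% of the 32851 windows in the table. The CCAAT box was found in 34.2 and 37.4%, the TATA box in 13.2 and 13.6%, and the FOXA core in 2.63 and 3.65%. A match is a match of letters only.

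For 3 minor fibrillar genes, Col5a3, Col27a1 and Col24a1, the het-labelled livers were higher at an unadjusted edgeR p under 0.05. The means of types I and III were lower there, but the sign for type I turned with the wild-type livers compared. Col5a3 (chromosome 9, 20770057 to 20815067, minus strand), a chain of type V collagen, had 38.2, 25.1, 32.5, 47.8 and 31.9 CPM in the wild-type livers and 75.1, 38.6 and 80.5 CPM in the het-labelled ones. Het-labelled livers 1 and 3 lay above every wild-type liver, and het-labelled liver 2 lay below wild-type liver 4. The means were 35.1 ± 8.47 CPM (SD, n = 5) and 64.7 ± 22.8 CPM (SD, n = 3), a 1.85-fold difference (log2 0.88, SE 0.27, unadjusted p = 0.00936, edgeR adjusted p = 0.259).

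Col27a1 (chromosome 4, 63215412 to 63334990, plus strand), a fibrillar chain known from cartilage, had 43.7, 21.2, 40.5, 51.4 and 42.3 CPM in the wild-type livers and 122, 69.3 and 102 CPM in the het-labelled ones. All 3 het-labelled livers were above every wild-type liver. The difference was 2.46-fold (log2 1.30, SE 0.28, unadjusted p = 0.0011, edgeR adjusted p = 0.259), and DESeq2 gave an adjusted p of 0.0148. Col24a1, a related chain known from developing bone, had 18, 7, 16, 19 and 19 counts in the wild-type livers and 39, 26 and 52 in the others (log2 1.27, SE 0.40, unadjusted p = 0.0108, edgeR adjusted p = 0.263). Its het-labelled livers too were all above the wild-type ones in CPM. Such separation upward held for 3 of the 33 tested collagens (Col27a1, Col24a1 and Col20a1) against 7.55% of all genes, and separation downward for 0 against 2.32%.

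The other chains of type V did not share the direction of Col5a3. Col5a2 had 81.3, 79.8, 75.0, 43.4 and 37.6 CPM in the wild-type livers and 23.9, 45.8 and 14.3 CPM in the het-labelled ones. Het-labelled livers 1 and 3 were the lowest of all, while het-labelled liver 2 lay above wild-type livers 4 and 5. Its log2 fold change was −1.18 (SE 0.41, unadjusted p = 0.0184, edgeR adjusted p = 0.268). Col5a1 had 42.1 ± 21.8 and 38.6 ± 6.16 CPM in wild-type and het-labelled livers (−0.13, SE 0.39), and Col11a2, a minor chain of the cartilage fibril, had 1.34 ± 0.433 and 1.48 ± 0.655 CPM (0.14, SE 0.40).

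**Figure D3:**
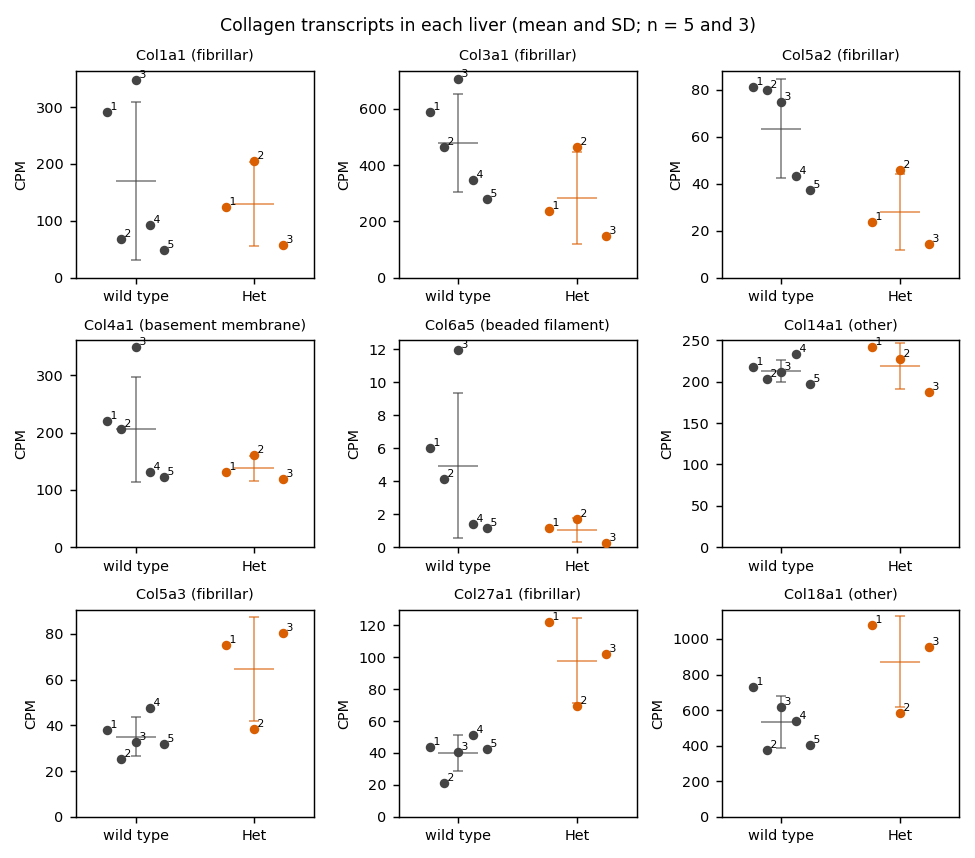
CPM of 9 collagen genes in each liver, with the liver number beside each point and the mean and SD of each genotype (n = 5 and 3). All 3 het-labelled livers lie above the wild-type range for Col27a1, while the genotypes overlap for the other 8 genes.

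All 6 basement membrane chains had a log2 fold change below 0, with a median of −1.54, and 0 of 6 had an unadjusted p under 0.05. The median was −0.80 against wild-type livers 2, 4 and 5 alone, −1.01 without wild-type liver 3 and −0.50 on log2(RPKM + 1). The common pair Col4a1 and Col4a2 had 206 ± 91.5 and 112 ± 67.1 CPM in wild type and 138 ± 21.6 and 83.1 ± 13.0 CPM in het-labelled livers, differences of −0.58 (SE 0.34) and −0.44 (SE 0.43). The scarcer chains differed more. Col4a3, known from the kidney filter, had 5.64, 7.47, 14.3, 1.59 and 2.23 CPM in wild-type livers 1 to 5 and 1.84, 3.44 and 1.05 CPM in the het-labelled livers (−1.58, SE 0.73, unadjusted p = 0.0589, edgeR adjusted p = 0.329). Col4a4, which assembles with it, had 8.43, 8.70, 18.4, 2.25 and 2.95 CPM and 2.35, 4.89 and 1.48 CPM (−1.50, SE 0.71, unadjusted p = 0.0631, edgeR adjusted p = 0.336). For both genes wild-type livers 1, 2 and 3 were above all het-labelled livers and wild-type livers 4 and 5 were among them. Col4a5 and Col4a6 had log2 fold changes of −1.65 (SE 0.81) and −1.95 (SE 0.98) with the same 3 wild-type livers highest.

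These 6 genes lie in 3 pairs that are read away from each other. In the deposited coordinates (mm10) Col4a1 and Col4a2 overlap by 22 bases at their starts on chromosome 8, and 1342 bases part Col4a6 from Col4a5 on chromosome X. Col4a4 starts at 82586849 and Col4a3 at 82586921 on chromosome 1, with 71 bases between them. That stretch is shown because both genes of the pair have their start at its ends and had their high values in the same livers.
Between Col4a4 and Col4a3, chr1:82586850-82586920, minus strand, GRCm38.p6: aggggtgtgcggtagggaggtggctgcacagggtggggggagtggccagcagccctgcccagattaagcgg
None of the 4 motifs named above was found in these 71 bases.

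The 5 tested beaded filament genes were below 0 as well, with a median log2 fold change of −1.08. It was −1.84 without het-labelled liver 2, −0.71 without het-labelled liver 3, −0.72 without wild-type liver 3, −0.59 on log2(RPKM + 1), and −1.87 and −0.27 against wild-type livers 1 and 3 or 2, 4 and 5 alone. Of the 5, 1 had an unadjusted p under 0.05, Col6a5, a chain of type VI collagen that can stand in for Col6a3. It had 6.04, 4.17, 12.0, 1.43 and 1.14 CPM in the wild-type livers and 1.15, 1.72 and 0.286 CPM in the het-labelled ones (−2.25, SE 0.87, unadjusted p = 0.0291, edgeR adjusted p = 0.28). Col6a6, another alternative chain, had 10.2, 6.49, 21.9, 0.549 and 0.662 CPM and 1.47, 2.26 and 1.19 CPM (−2.29, SE 1.11, unadjusted p = 0.0681, edgeR adjusted p = 0.342). In Col6a6 the lowest 2 livers of all were wild type, livers 4 and 5, and in Col6a5 those livers lay among the het-labelled ones. The common chains Col6a1, Col6a2 and Col6a3 had log2 fold changes of −0.65 (SE 0.52), −0.91 (SE 0.64) and −1.08 (SE 0.66). Col6a3 ran from 78.1 to 412 CPM in wild type and from 42.1 to 183 CPM in het-labelled livers.

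The other 13 tested collagens went both ways, 6 above 0 and 7 below, with a median of −0.45. The sign of that median turned, to 0.025 with only genes of at least 1 CPM and to 0.0044 against wild-type livers 2, 4 and 5 alone. It was −0.78 without het-labelled liver 2, −0.23 without wild-type liver 3 and −0.18 without het-labelled liver 3. Col18a1 (chromosome 10, 77052179 to 77166530, minus strand) had 731, 375, 619, 537 and 405 CPM in the wild-type livers and 1076, 585 and 954 CPM in the het-labelled ones. Het-labelled livers 1 and 3 were above every wild-type liver and het-labelled liver 2 was inside their range. Its log2 fold change was 0.71 (SE 0.28, unadjusted p = 0.034, edgeR adjusted p = 0.291). Col20a1, a scarce fibril-associated collagen, had 39, 24, 44, 31 and 12 counts in wild type and 81, 40 and 37 counts in het-labelled livers (0.85, SE 0.37, unadjusted p = 0.0457, edgeR adjusted p = 0.311). In CPM its het-labelled values of 3.73, 2.15 and 1.76 were above the highest wild-type value of 1.73, the last by a margin of less than 1 count.

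Col14a1 was the steadiest of the tested collagens among wild-type livers, at 218, 204, 212, 233 and 198 CPM, and had 242, 227 and 188 CPM in the het-labelled ones (log2 fold change 0.04, SE 0.15). Its sign turned to −0.0065 with RLE scaling and to −0.14 with library size alone. Among the remaining genes, log2 fold changes were −1.12 (SE 0.51) for Col8a1, a short-chain collagen of vessels, and −0.96 (SE 0.63) for Col15a1, a relative of Col18a1 in basement membrane zones. The fibril-associated Col16a1 and Col12a1 had −0.53 (SE 0.42) and −0.45 (SE 0.26). The transmembrane collagens Col13a1 and Col25a1 had 0.54 (SE 0.26) and 0.62 (SE 0.65), the second with a sign that turned to −0.43 without het-labelled liver 1. None of these 6 had an unadjusted p under 0.05. The 4 scarcest tested genes had −1.02 (Col7a1), −1.21 (Col8a2), −0.57 (Col9a3) and 0.40 (Col23a1).

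**Figure D4:**
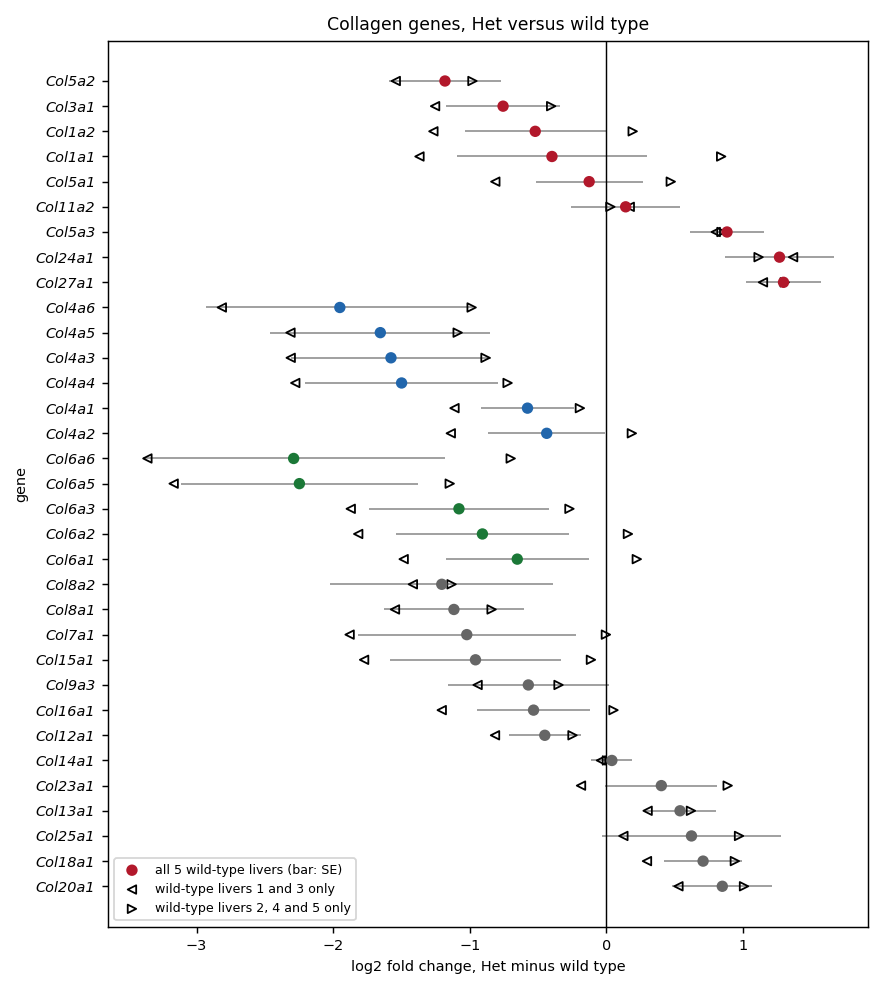
Log2 fold change (het-labelled minus wild type) of the 33 tested collagens with its SE (bar), colored by class (red fibrillar, blue basement membrane, green beaded filament, grey other). Open triangles give the same difference against wild-type livers 1 and 3 alone (left-pointing) or 2, 4 and 5 alone (right-pointing), which lie to either side of 0 for Col1a1 (−1.37 and 0.84).

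Which wild-type livers were compared set the sign for type I collagen. Against wild-type livers 1 and 3, the pair with the low Rpph1 share, 21 of 33 collagens were lower at an unadjusted p under 0.05 (63.6%, against 14.7% of all genes) and 3 were higher (9.09%, against 16.7%). Of all genes 0.145% passed after adjustment in that fit, and no collagen was among them. Against wild-type livers 2, 4 and 5, 0 collagens were lower (18.1% of all genes) and 5 were higher (15.2%, against 18.2%). There Col27a1 (log2 1.31, edgeR adjusted p = 0.0394) and Col18a1 (0.94, edgeR adjusted p = 0.0429) passed, as did 17.4% of all genes. Both fits share the 3 het-labelled livers. Col1a1 stood at −1.37 in the first fit and 0.84 in the second, Col1a2 at −1.27 and 0.19, and Col5a1 at −0.81 and 0.47. The values of Col4a2, Col6a1, Col6a2, Col14a1, Col16a1 and Col23a1 also turned from below to above 0. Col5a2 stayed below 0 (−1.54 and −0.98), as did Col3a1 (−1.25 and −0.40). The upward genes kept their sign, with 0.80 and 0.84 for Col5a3, 1.15 and 1.31 for Col27a1 and 1.37 and 1.12 for Col24a1.

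Ratios between chains compare genes within a liver and do not move with library scaling. In all, 6 ratios per exon length were set against the genotype label. Each was tested by exact permutation, two-sided, with 56 possible label arrangements and a smallest possible p of 0.0179, and p was adjusted over the 6. The ratio of Col5a1 to Col5a2 was 0.564, 0.259, 0.747, 0.623 and 0.425 in the wild-type livers and 1.46, 0.682 and 1.76 in the het-labelled ones. Het-labelled livers 1 and 3 were above every wild-type liver and het-labelled liver 2 was below wild-type liver 3 (exact permutation p = 0.0357, adjusted p = 0.214). The other 5 ratios had exact permutation p-values of 0.179 to 0.304 and adjusted p-values of 0.295 to 0.304. The ratio of Col1a1 to Col1a2, whose protein pairs 2 chains with 1, was 0.827 ± 0.261 in wild type (SD, n = 5) and 1.01 ± 0.0783 in het-labelled livers (SD, n = 3; exact permutation p = 0.304).

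In 3 of the ratios wild-type livers 2, 4 and 5, those with the high Rpph1 share, parted from all the other livers. Col1a1 to Col1a2 was 0.559, 0.787 and 0.596 in wild-type livers 2, 4 and 5, and between 0.922 and 1.10 in the other 5 livers. Col3a1 to Col1a1 was 7.25, 3.96 and 6.16 in those 3 livers and 2.03 to 2.71 in the others. Col4a1 to Col4a2 was 2.12, 2.03 and 2.15 against 1.53 to 1.72. The part of library quality in these ratios was not tested. Col6a1 to Col6a2 parted in this way within wild type only. It was 1.86 in wild-type livers 1 and 3 and 2.13, 2.25 and 2.44 in wild-type livers 2, 4 and 5. In the het-labelled livers it was 2.52, 2.04 and 2.97. Col6a3 to Col6a1 ran from 0.81 to 2.45 with no such parting.

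**Figure D5:**
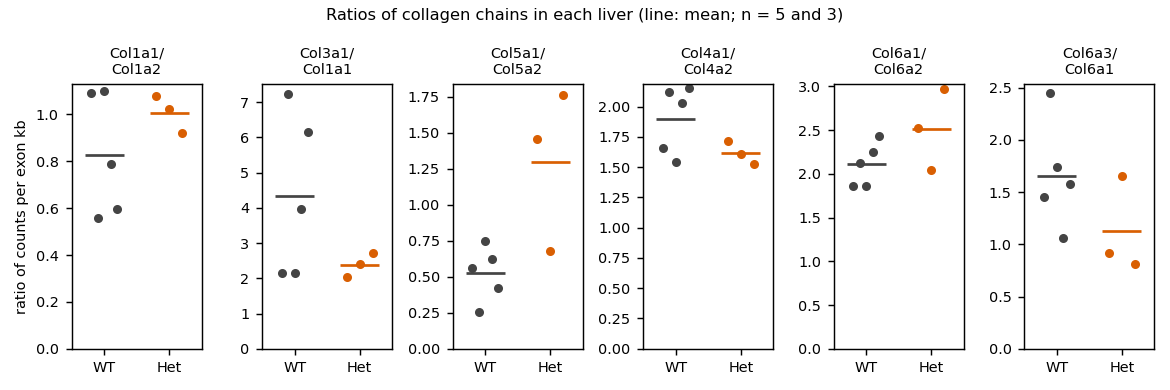
Ratio of counts per exon kilobase between collagen chains in each liver, with the mean of each genotype as a line (n = 5 wild type, 3 het-labelled). Col5a1 to Col5a2 is highest in 2 het-labelled livers (1.46 and 1.76), and the Col3a1 to Col1a1 ratio spreads from 2.15 to 7.25 within wild type.

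Genes that make, modify and receive collagen were counted in 5 lists, and no member passed the adjusted test. The counts below are at an unadjusted p under 0.05, which 10.3% of all genes met as higher and 5.43% as lower. They and the medians come from the fit with all wild-type livers and were not split by wild-type set. Whether they hold against each set was not tested. Of 21 tested enzymes and chaperones of collagen synthesis, 3 were higher and 0 lower (median log2 fold change 0.12). These were Mia2, an export factor for large cargo (0.58, SE 0.18), Plod1, a lysyl hydroxylase (0.51, SE 0.18), and P4hb, a subunit of prolyl hydroxylase that also serves as protein disulfide isomerase (0.50, SE 0.20). Among 6 tested genes of propeptide processing, the proteinase Bmp1 was higher (0.60, SE 0.21) and 0 were lower. Adamts2 and the enhancer Pcolce, which act on fibrillar procollagen, had −0.54 (SE 0.50) and −0.26 (SE 0.40), and the list's median was −0.20.

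Fibril-associated proteoglycans and glycoproteins had 1 of 16 lower and 0 higher, with a median of −0.50. The lower one was Thbs2, a matrix thrombospondin (−1.25, SE 0.48). The next smallest p-values, both above 0.05, were those of Fn1, fibronectin, with a value above 0 (0.81, SE 0.36), and of the fibril protein gene Dpt (−1.30, SE 0.66). Collagen receptors had 1 of 9 lower, the inhibitory leukocyte receptor Lair1, with a median of −0.79 over the list. Lair1 had 31.3, 43.1, 29.8, 35.6 and 42.1 CPM in wild type and 16.5, 29.4 and 17.3 CPM in het-labelled livers, so that every het-labelled liver was below every wild-type one (−0.79, SE 0.23, edgeR adjusted p = 0.259). The integrin genes Itga11 and Itga2 had −1.51 (SE 0.74) and −1.29 (SE 0.68). Of 20 TGF-beta and PDGF pathway genes, which drive collagen synthesis in stellate cells, 2 were lower and 0 higher (median −0.60). They were the growth factor Pdgfc (−0.71, SE 0.24) and the receptor Tgfbr1 (−0.70, SE 0.27), and the receptor Pdgfra had −1.07 (SE 0.51).

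Markers of the cells that could supply these transcripts were summed per liver in CPM. Hepatocyte markers (8 of 8 measured) summed to 38643 to 43858 CPM in wild type and to 70476, 40890 and 60940 CPM in het-labelled livers 1, 2 and 3. Most of that sum was Alb, the albumin gene. Without it the sums were 10965 to 16215 CPM in wild type and 17243, 11614 and 16879 CPM in the het-labelled livers, and Cps1, a urea cycle enzyme, had a log2 fold change of −0.33 (SE 0.27). Col18a1, Col27a1 and Col5a3 too were highest in het-labelled livers 1 and 3. Among wild-type livers, the hepatocyte sum with Alb and Col18a1 were both highest in liver 1. Without Alb the sum was highest in wild-type liver 5 and lowest in wild-type liver 3, where Col18a1 had 405 and 619 CPM. The part of hepatocytes in these collagen values was not tested. Bile duct markers (8 of 8) summed to 85.7, 82.2, 171, 29.4 and 33.2 CPM in wild type and 36.5, 80.3 and 36.9 CPM in het-labelled livers. Portal fibroblast and mesothelial markers (10 of 10) summed to 120, 116, 152, 50.1 and 56.8 CPM and to 32.0, 86.8 and 21.3 CPM. In both lists wild-type livers 4 and 5 and het-labelled livers 1 and 3 were the 4 lowest. The same 4 livers were lowest for Col4a1 to Col4a6, Col6a2, Col6a3, Col6a5, Col6a6, Col1a2, Col3a1, Col5a2, Col8a1, Col8a2, Col15a1 and Col16a1. These genes come from every class, so the order was not particular to 1 kind of collagen. The part of bile duct and portal cells in the collagen values was not tested. At an unadjusted p under 0.05 (10.3% of all genes higher, 5.43% lower), 2 of 8 hepatocyte markers were higher (Ttr and Hnf4a), as were 2 of 12 stellate (Reln and Ecm1), 1 of 9 myofibroblast (Tpm2), 1 of 8 sinusoidal endothelial (Lyve1) and the 1 tested adipocyte marker (Cfd). Of T and NK cell markers 2 of 6 were lower (Nkg7 and Ncr1). None of the 7 tested bile duct, 9 portal, 8 macrophage and 2 smooth muscle markers met it.

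Stellate cell markers varied among themselves. All 12 were measured, summing to 580 to 875 CPM in wild type and 651 to 790 CPM in het-labelled livers, with wild-type livers 4 and 5 the highest (830 and 875 CPM). Lrat, whose enzyme esterifies vitamin A and marks these cells, was highest in wild-type livers 4 and 5. It had 40.8 to 126 CPM in wild type and 74.2 to 105 CPM in het-labelled livers. Pdgfrb, a growth factor receptor of these cells and of other mesenchyme, was highest in the livers where Col1a1 was high. It had 72.1, 31.4, 84.9, 19.6 and 19.5 CPM in wild type and 27.8, 44.9 and 19.3 CPM in het-labelled livers. Hand2, a transcription factor, had 12.0, 5.97, 13.0, 7.19 and 4.69 CPM and 10.1, 11.4 and 6.05 CPM, with wild-type livers 1 and 3 highest. The part of these cells in the collagen values was not tested. Myofibroblast markers (9 of 10 tested) summed to 436 to 836 and 173 to 746 CPM, most of it from Spp1, which other cells also express. Acta2, the smooth muscle actin of activated stellate cells, had 1.93 to 5.24 and 2.48 to 4.73 CPM. Sinusoidal endothelial markers (8 of 8) summed to 446 to 534 and 465 to 608 CPM, macrophage markers (8 of 8) to 393 to 768 and 305 to 540 CPM. T and NK cell markers (6 of 6) summed to 5.54 to 15.7 and 3.62 to 8.50 CPM, and smooth muscle markers (4 of 4) to 6.49 to 14.0 and 9.34 to 10.6 CPM. Of the adipocyte markers Lep was at 0, and Adipoq, Retn and Plin1 had 4, 2 and 1 counts in all. Cfd, a complement protease of fat cells, made up the rest, with 39.6 and 20.1 CPM in het-labelled livers 1 and 3 and at most 3.40 CPM in the other 6.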

How the data were processed

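RNA of 8 livers was sequenced from libraries made with a KAPA mRNA HyperPrep kit, per the labels. The submitters' processing notes name STAR, HTSeq, bcl2fastq (2.18.0.12) and build mm10. No annotation, strand setting or counting mode is given in the sources used here, so reads of overlapping genes cannot be told apart. The authors deposited unnormalized whole-number counts for each gene, with totals of 17508221 to 24916239 per library. They also deposited RPKM values and each gene's total exon length. Unused sample columns numbered 0. Each deposited RPKM equalled the count over exon length and 1 constant per library, to a relative deviation of at most 2.12e-07.

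Samples were grouped by the genotype label, with replicate numbers following accession order. Nothing in the labels ties a sample to a separate animal beyond its title number, so a p-value reflects only how these samples spread, which may be technical. Between replicates, chi-square over its degrees of freedom was at least 22.9, so each library was 1 replicate. Genes were kept with filterByExpr (minimum count 10, minimum total 15), which left 14438. Counts were scaled by TMM (factors 0.852 to 1.27) and the genotypes compared over all genes by edgeR's quasi-likelihood test (robust, two-sided, Benjamini-Hochberg adjustment, threshold 0.05). The procedure was tested on simulated data. Intervals and limits from counts cover counting error only.

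All collagens with a mean of at least 1 CPM (29 genes) were to be named. Col1a1, Col3a1, Col5a3 and the 2 members per class with the smallest p were to be given liver by liver, with 3 genes per pathway list. Col5a2, Col14a1, Col24a1, Col28a1, Lair1, Pdgfrb, Hand2 and Cfd were given liver by liver after their values were seen. The members, lists, motifs and wild-type subsets were chosen with earlier results of these data known. The lists hold 152 symbols, 5 of them in more than 1 list. Alternatives were DESeq2, limma-voom, RLE scaling, no scaling beyond library size, other filters, no robust estimation, limma on log2(RPKM + 0.1) and log2(RPKM + 1), a threshold of 0.10, fits without Rn45s and Rpph1, 2 wild-type subsets, and each library left out. Versions were edgeR 4.0.16, DESeq2 1.42.0 and limma 3.58.1 in R 4.3.3, with Python 3.11.15 and matplotlib 3.10.9.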

Additional observations from a re-analysis of the deposited data

How the results depend on the processing

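Over all genes edgeR called 0, DESeq2 166, and edgeR 21 against wild-type livers 1 and 3 and 2512 against wild-type livers 2, 4 and 5. Collagens lower at an unadjusted p under 0.05 numbered 2 (5.43% of all genes), but 9 in DESeq2 (7.16%), 5 without the filter (5.02%), 1 on log2(RPKM + 1) (6.18%), 21 and 0 against the 2 wild-type subsets (14.7 and 18.1%), and 0 to 11 with 1 library left out (1.5 to 11.2%). Those higher numbered 5 (10.3% of all genes), but 3 with library size alone (2.96%) and against wild-type livers 1 and 3 (16.7%), and 2 to 5 with 1 library left out (3.86 to 13.2%). After adjustment DESeq2 called 1 collagen and the fit against wild-type livers 2, 4 and 5 called 2. Library size alone moved the median of all genes to −0.18. Against wild-type livers 2, 4 and 5 the sign turned for Col1a1 (0.84), Col1a2 (0.19), Col5a1 (0.47), Col4a2 (0.19), Col6a1 (0.22), Col6a2 (0.16) and Col16a1 (0.053). It also turned for Col11a2 with library size alone (−0.033), for Col5a1 in limma-voom (0.017), and for Col14a1 with RLE scaling (−0.0065), library size alone (−0.14) and wild-type livers 1 and 3 (−0.039). With 1 library left out, ranges crossed 0 for Col11a2 (−0.21 to 0.44), Col1a1 (−0.90 to 0.013), Col5a1 (−0.30 to 0.11), Col14a1 (−0.039 to 0.14) and Col25a1 (−0.43 to 1.08). The cause was not tested. The 6 chain ratios kept their direction with each library left out, where so few label arrangements are left that their p-values say nothing of stability. Deposited RPKM give the same ratios by construction. No paired analysis was possible because the labels give the genotypes no shared replicate numbers. For the 11 untested collagens, low expression and limited depth cannot be told apart.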
